A study of Mus musculus with 6 samples.

Results

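The ZIC factors and the neural POU factors are families of DNA-binding regulators of early neural development. The genes described here are Zic1, Zic2, Zic4, Zic5, Pou3f1, Pou3f2, Pou3f3, Pou3f4 and Pou4f1, chosen by name, and all 9 were found among the 54532 genes of the deposited table. They were measured in P19, a mouse embryonal carcinoma cell line that yields neural cells when treated with retinoic acid. RNA was sequenced from 3 replicate samples transfected transiently with a negative control (NC) siRNA and from 3 transfected with an siRNA against Baf45d. All 6 were collected on day 5 of all-trans retinoic acid, so both groups carry the transfection and the retinoic acid and differ in the siRNA. The series concerns the role of BAF45D in neural differentiation and its link to SMAD signals. BAF45D is the product of Dpf2 and belongs to the BAF complexes, which remodel chromatin.

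ZIC proteins are C2H2 zinc finger factors related to the GLI factors of hedgehog signaling, and they act in the neural plate, the dorsal neural tube, the neural crest and the cerebellum. Their genes lie in the mouse genome as divergent neighbours, Zic1 beside Zic4 and Zic2 beside Zic5. POU factors bind DNA through a POU-specific domain joined to a homeodomain. Class III POU factors (the Pou3f genes) work with SOX factors on enhancers of neural progenitors, and Pou4f1 acts in sensory neurons.

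The coding sequences hold stretches that are nearly the same between paralogs, which bears on how far reads can be told apart. The window shown for the class III genes lies in the part that encodes the POU-specific domain, and each of these genes is annotated as 1 transcript without introns. Sequences are 48 bases of the coding strand from GENCODE M21 transcripts (GRCm38), 5′ to 3′, and capitals mark the bases that are identical in all 4 genes of the set. The windows are chr4:124658584-124658631 on the plus strand for Pou3f1, chr4:22487150-22487197 on the minus strand for Pou3f2, chr1:42698221-42698268 on the plus strand for Pou3f3 and chrX:110815165-110815212 on the plus strand for Pou3f4.
Pou3f1: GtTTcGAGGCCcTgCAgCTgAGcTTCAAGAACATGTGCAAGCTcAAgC
Pou3f2: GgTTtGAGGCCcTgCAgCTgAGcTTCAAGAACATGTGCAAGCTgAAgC
Pou3f3: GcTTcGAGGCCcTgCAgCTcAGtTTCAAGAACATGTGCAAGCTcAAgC
Pou3f4: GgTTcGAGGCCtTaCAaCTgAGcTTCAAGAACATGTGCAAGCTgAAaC

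In this window 39 of 48 bases were shared by all 4 class III genes. Against Pou3f1, Pou3f2 and Pou3f3 each differed at 3 bases and Pou3f4 at 6. The longest identical coding run was 38 bases, between Pou3f1 and Pou3f2.

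The Zic window lies in the part that encodes the zinc fingers. Its positions are chr9:91364245-91364292 on the minus strand for Zic1, chr14:122476491-122476538 on the plus strand for Zic2, chr9:91379146-91379193 on the plus strand for Zic4 and chr14:122464101-122464148 on the minus strand for Zic5.
Zic1: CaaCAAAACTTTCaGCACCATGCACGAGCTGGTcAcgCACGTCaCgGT
Zic2: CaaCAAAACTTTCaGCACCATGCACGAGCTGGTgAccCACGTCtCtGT
Zic4: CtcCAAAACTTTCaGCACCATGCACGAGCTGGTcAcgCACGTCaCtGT
Zic5: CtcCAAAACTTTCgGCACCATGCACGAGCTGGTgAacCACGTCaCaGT

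Here 40 of 48 bases were shared by all 4, and the longest identical coding run was 42 bases, between Zic1 and Zic4. Outside such windows the 9 genes share little sequence with each other. Of the 31-base stretches in a gene's transcripts, the share found in another gene of the 9 was highest for Zic1, at 1.2%, and was 0 for Pou4f1. Of the 68 Zic1 stretches so shared, 46 were found in Zic4, whose exons overlap those of Zic1 by 60 bases on the opposite strand. Pou4f1 shared 61 stretches, or 1.31%, with its paralog Pou4f2, which had 15 to 37 counts per library. Zic5 shared 10.2% of its stretches with the processed pseudogene Gm12241, which had 0 counts in all 6 libraries. Pou3f1 shared 7.88% with the overlapping antisense transcript Gm2164, which had 17 to 33 counts per library. Zic4 shared 4.24% with the overlapping transcript Gm37477, which had 0 to 5 counts per library.

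Libraries held 17127876 to 21224822 counts. Dpf2, the siRNA's target, stood at 154.1 to 157.5 CPM (counts scaled to library size with TMM factors) in the NC libraries. In the Baf45d libraries Dpf2 stood at 141.4 to 148.2 CPM, so the groups did not overlap. Of all genes tested, 4.3% were likewise apart and lower with Baf45d siRNA. The Dpf2 difference, -0.10 on the log2 scale (SE 0.07), did not pass the edgeR test (adjusted p = 0.996). Gapdh set 1 library apart, with 236.2 CPM in Baf45d replicate 3 against 14.0 to 31.2 CPM elsewhere. A gapdh siRNA is mentioned in the treatment labels but is given for none of the 6 samples. Neuron and neural progenitor markers were present in every library. Of 10 pluripotency markers, 7 had enough counts to be tested, among them Klf4, Lin28a, Pou5f1 and Nanog with 546, 501, 405 and 188 counts in all. Zfp42 and Dppa5a had 0 counts throughout, and the 10 summed to 16.0 to 22.6 CPM per library. The 14 mesenchyme markers were also present in every library and summed to 1911 to 2311 CPM. They had 4 positive and 10 negative log2 fold changes between the siRNA groups, with a median of -0.20. Neuron markers had 11 of 14 positive (median 0.21) and neural progenitor markers 8 of 11 (median 0.13). Over all genes tested 51.9% were positive, and 0 of these markers had an adjusted p under 0.05. In such bulk RNA, fewer cells of a type and less RNA per cell cannot be told apart.

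Among the 9 genes, Pou3f1 was by far the most abundant per transcript length. The order of mean levels over the 6 libraries, in deposited FPKM (fragments per kilobase, scaled to library depth), was Pou3f1 at 57.8, Zic1 at 9.86, Pou3f2 at 5.20, Pou3f3 at 3.52, Zic2 at 3.18, Pou4f1 at 1.20, Zic5 at 0.884, Zic4 at 0.316 and Pou3f4 at 0.0156. Pou3f3 and Zic2 overlapped in their ranges, as did Pou4f1 and Zic5, and in each of these pairs the first gene was higher in 5 of 6 libraries. Every other neighbour in the order was separated without overlap. The place of Zic4 depends on the length used, since the deposited length of 10335 bases joins 12 transcripts.

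**Figure D1:**
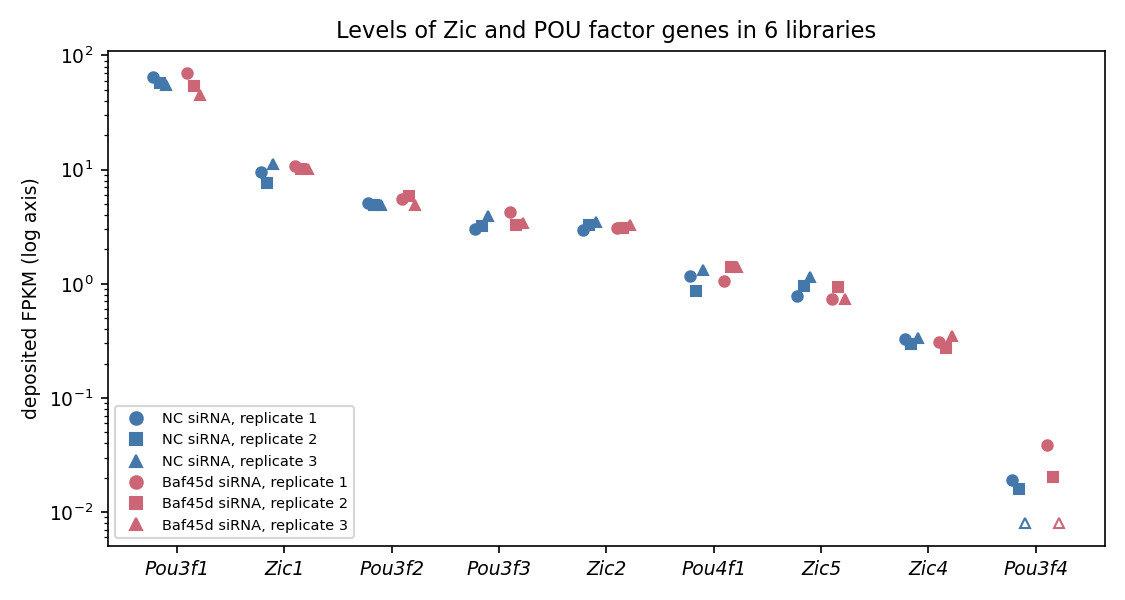
Deposited FPKM (log axis) of the 9 genes, ordered by mean, with 1 symbol for each library, NC siRNA in blue and Baf45d siRNA in red; open symbols at the foot of the Pou3f4 column mark libraries with 0 counts. Pou3f1 lies between 45.0 and 69.9 FPKM in all 6 libraries, above every other gene, and the siRNA groups overlap in each column.

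Other POU genes give the scale. The class VI gene Pou6f1 stood at 12.2 ± 0.788 FPKM in NC libraries and 12.9 ± 2.77 FPKM in Baf45d libraries (SD, n = 3, the order kept for later pairs of values), and Pou2f1, a widely expressed gene, at 4.01 ± 0.19 and 4.09 ± 0.338 FPKM. Pou5f1, the pluripotency factor of the family, stood at 1.61 ± 0.244 and 1.66 ± 0.167 FPKM. Within class III, Pou3f1 made up 87.6 ± 1.32% of the summed FPKM of the 4 Pou3f genes with NC siRNA and 85.9 ± 1.6% with Baf45d siRNA (two-sided exact permutation p = 0.3).

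No difference between Baf45d and NC siRNA larger than the spread between replicates was found for the genes that could be tested. Of the 9, 8 passed the filter on low counts and were tested, and 0 of 8 had an adjusted p under 0.05 in the edgeR quasi-likelihood test, where 0% of 16078 genes did. At an unadjusted p under 0.05 there were also 0 of 8, against a background of 2.85%, and DESeq2 and limma-voom called 0 of the 8 after adjustment, as they did 0 of 29811 and 0 of 16078 genes in all. With a replicate block the count was again 0 of 8 (background 0.00622%). At an unadjusted p under 0.05 the block fit in edgeR held 7.75% of all genes, and the smallest p of the 8 was 0.159, for Zic1. Without Baf45d replicate 3, the library with high Gapdh, 0 of 8 had an adjusted p under 0.05 (background 0.269%). The groups overlapped for all 8, against 8.04% of all genes tested whose groups did not. Signs were balanced, with 4 genes positive and 4 negative and a median log2 fold change of 0.04. Over all genes tested 51.9% were positive and the median was 0.01. Adjusted p ran from 0.996 to 0.997. The two-sided exact permutation test of each gene gave p from 0.2 to 0.7, where 3 against 3 allow no less than 0.1. The labels call the samples biological replicates without saying how they were separated.

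**Figure D2:**
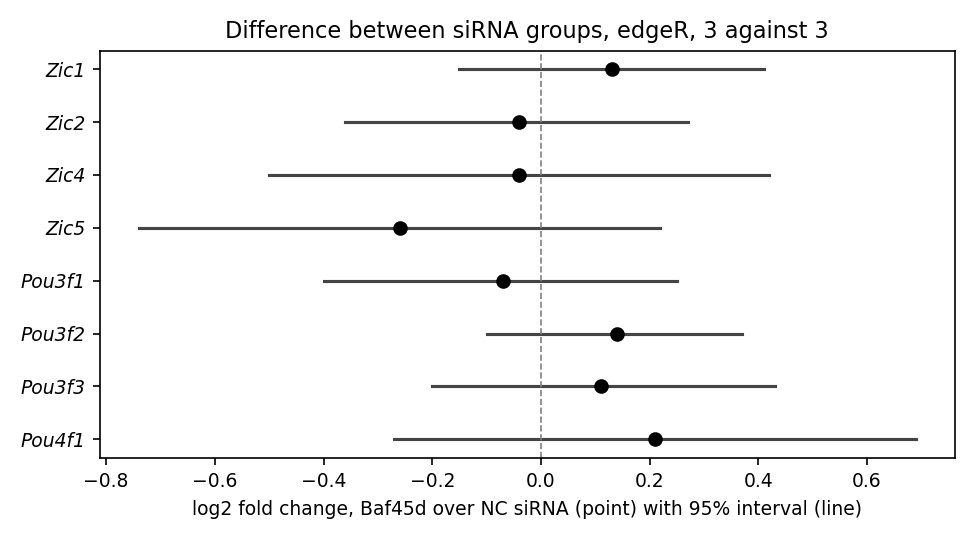
Log2 fold change of Baf45d over NC siRNA for the 8 genes tested (points) with 95% intervals from edgeR (lines), 3 libraries per group. All 8 intervals cross 0, and they are widest for Zic5 and Pou4f1, with SE of 0.22 each.

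Pou3f1 (chromosome 4, 124656807 to 124660655, plus strand, GRCm38) encodes a factor that promotes neural fate in mouse pluripotent cells and later acts in Schwann cells. It stood at 252.0, 222.3 and 213.3 CPM in NC replicates 1 to 3 and at 270.6, 210.4 and 173.6 CPM in Baf45d replicates 1 to 3. The Baf45d group held both the highest and the lowest library, and all NC libraries lay between Baf45d replicates 1 and 2. The fitted difference was -0.07 (log2, SE 0.15), or -4.79%, and its 95% interval spanned -24.0% to 19.3%. Its sign rested on single libraries, since it turned positive on leaving out Baf45d replicate 3 (0.07) or NC replicate 1 (0.01), and was -0.25 on leaving out Baf45d replicate 1. The coefficient of variation over 6 libraries was 15.2%, where counting error alone gives 1.56%.

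The order of the Baf45d libraries in Pou3f1 was also that of the summed neuron markers, though not of each marker. It was not particular to neuron markers. Other POU genes summed to 221.0, 193.2 and 155.5 CPM in Baf45d replicates 1 to 3, and sensory neuron genes to 175.3, 160.9 and 136.1 CPM. Factors that act beside class III POU factors summed to 1789, 1693 and 1219 CPM. The sums of the other lists used here, such as class III POU targets and progenitor or mesenchyme markers, had other orders. Summed over 14 neuron markers, NC replicates 1 to 3 held 1116, 1024 and 1053 CPM, against 1453, 1302 and 945.6 CPM in Baf45d replicates 1 to 3. Map2, for one, stood at 209.2, 216.0 and 139.8 CPM in those Baf45d libraries. Baf45d replicate 2 lay above all NC libraries in the sum but below all of them for Pou3f1. Of these 14 genes, 6 had both their highest value in Baf45d replicate 1 and their lowest in Baf45d replicate 3, as Pou3f1 did, against 8.88% of all genes tested. None of the 14 had 0 counts. The part of this pattern in the spread of Pou3f1 was not tested.

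Pou3f2 (chromosome 4, 22482780 to 22488366, minus strand), which encodes a factor used in neuronal reprogramming and cortical neurogenesis, stood at 28.6, 27.5 and 27.4 CPM in NC replicates and, in Baf45d replicates, at 31.3, 33.0 and 27.4 CPM. Replicates 1 and 2 of Baf45d lay above all NC libraries and replicate 3 did not. The log2 difference of 0.14 (SE 0.10) had the smallest unadjusted p of the 8, at 0.22, and its 95% interval ran from -6.38% to 28.9%. The sign held in all 17 alternative settings, with 0.08 to 0.21.

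Pou3f3 (chromosome 1, 42695768 to 42703176, plus strand), known from cortical and kidney development, stood at 22.4, 24.1 and 29.0 CPM in NC replicates and, in Baf45d replicates, at 32.0, 24.5 and 25.2 CPM. Only Baf45d replicate 1 exceeded the NC range. Its log2 difference was 0.11 (SE 0.14), and it was -0.02 without Baf45d replicate 1. Pou3f4 (chromosome X, 110814280 to 110817207, plus strand), a gene of the inner ear and brain in mouse, was at the limit of detection. NC replicates 1 to 3 had 1, 1 and 0 counts, against 2, 1 and 0 for Baf45d. A library with 0 counts allows up to 3, or 0.168 CPM of the raw total in NC replicate 3 and 0.162 CPM in Baf45d replicate 3, for counting error alone.

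Pou4f1 (chromosome 14, 104461676 to 104467999, minus strand), which encodes a factor of sensory neurons, stood at 5.43, 4.04 and 6.21 CPM in NC replicates and, in Baf45d replicates, at 4.94, 6.59 and 6.59 CPM. Baf45d replicates 2 and 3 lay above all NC libraries and Baf45d replicate 1 lay within their range. Its log2 difference was 0.21 (SE 0.22), and the interval reached from -17.1% to 61.9%. It was 0.05 without NC replicate 2 and 0.36 without NC replicate 3. Counting error gives a coefficient of variation of 9.89% at its depth, and 18.2% was observed.

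Zic1 (chromosome 9, 91358058 to 91365810, minus strand), needed in mouse for cerebellar and dorsal neural development, stood at 54.7, 43.7 and 63.3 CPM in NC replicates and, in Baf45d replicates, at 61.2, 57.7 and 57.6 CPM. The NC group held both extremes and the Baf45d libraries lay close together between them. Zic1 had a log2 difference of 0.13 (SE 0.13), which was 0.00 without NC replicate 2. Zic4 (chromosome 9, 91362413 to 91389348, plus strand), its divergent neighbour, stood at 3.42, 3.10 and 3.47 CPM in NC replicates and, in Baf45d replicates, at 3.23, 2.85 and 3.59 CPM. For Zic4 the extremes were both Baf45d libraries, and the log2 difference was -0.04 (SE 0.21).

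The FPKM ratio of Zic1 to Zic4 was 29.1, 25.6 and 33.1 in NC replicates 1 to 3, against 34.4, 36.8 and 29.1 in Baf45d replicates 1 to 3 (two-sided exact permutation p = 0.2). Zic1 was the higher neighbour in every library. Their annotated exons overlap on opposite strands by 60 bases, which is 1.05% of Zic1 exons and 0.581% of Zic4 exons. The counting's use of strand is not given in the sources used here, so reads in those bases are uncertain, as are reads in the antisense overlap at Pou3f1 described further on.

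Zic2 (chromosome 14, 122475435 to 122479852, plus strand), a gene of forebrain and neural tube development, was the steadiest of the 8. It stood at 8.57, 9.44 and 10.0 CPM in NC replicates and, in Baf45d replicates, at 8.91, 8.97 and 9.36 CPM, so all Baf45d libraries lay within the NC range. Zic2 had a log2 difference of -0.04 (SE 0.14), with limits at -21.8% and 20.9%. The coefficient of variation was 5.52%, below the 7.7% that counting error alone gives on average.

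Zic5 (chromosome 14, 122456795 to 122465677, minus strand), which lies 9757 bases from Zic2 and takes part in neural tube closure in mouse, stood at 3.86, 4.69 and 5.65 CPM in NC replicates and, in Baf45d replicates, at 3.63, 4.63 and 3.59 CPM. Baf45d replicates 1 and 3 lay below all NC libraries and replicate 2 lay inside their range. Its log2 difference was -0.26 (SE 0.22), or -16.6% with limits at -40.3% and 16.5%, and the unadjusted p from edgeR was 0.254. Its sign was negative in all 17 alternative settings, from -0.39 to -0.05. The FPKM ratio of Zic2 to Zic5 was 3.39 ± 0.378 for NC and 3.96 ± 0.596 for Baf45d (SD, n = 3; two-sided exact permutation p = 0.3).

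**Figure D3:**
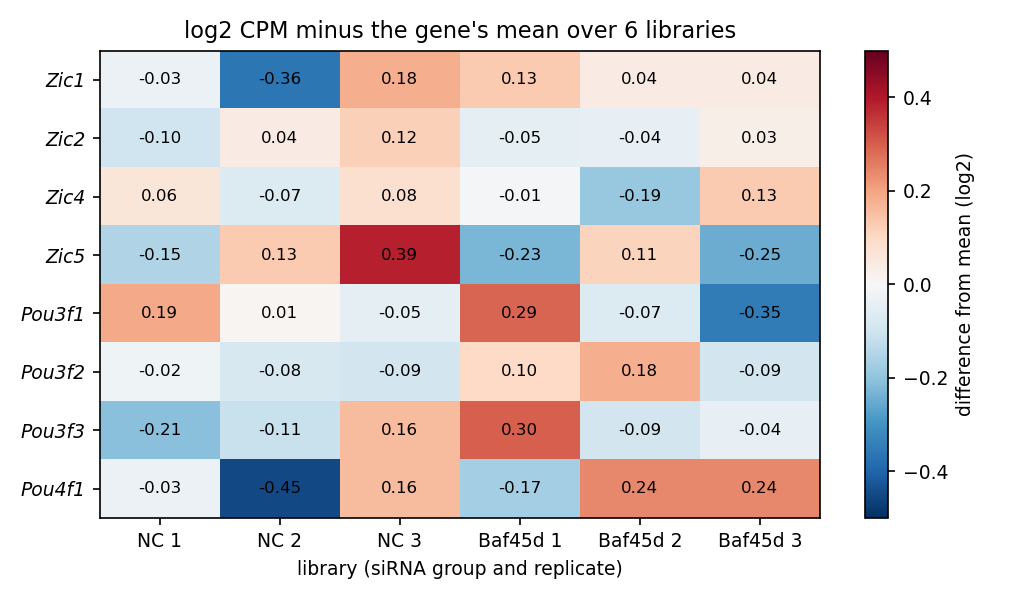
Log2 CPM of each of the 8 genes minus that gene's mean over the 6 libraries (colour and printed value), with libraries in columns. No column is uniformly high or low; the largest deviations are -0.45 for Pou4f1 and -0.36 for Zic1 in NC replicate 2, 0.39 for Zic5 in NC replicate 3 and -0.35 for Pou3f1 in Baf45d replicate 3.

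The 8 genes did not share 1 pattern over the libraries. The root mean square difference between centred log2 CPM was lowest for Zic2 and Zic4, at 0.113, and highest for Pou3f1 and Pou4f1, at 0.40. Divergent neighbours were not the closest pairs, with 0.174 for Zic1 and Zic4 and 0.189 for Zic2 and Zic5. Within same-numbered libraries, the Baf45d library was higher for Pou3f2 in pairs 1 and 2 and level in pair 3 (0.13, 0.27 and 0.00 on the log2 scale). For Zic5 it was lower in 3 of 3, by little in pair 2 (-0.09, -0.02 and -0.64). The other 6 genes had mixed signs.

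By the same measure over 6 libraries, the genes of at least 10 CPM most like Pou3f1 were Cyp26b1, which encodes an enzyme that degrades retinoic acid (difference 0.0235), and Gabbr1, a GABA-B receptor subunit (0.0287). The median gene lay 0.236 from Pou3f1. Closest to Pou3f2 were Rhno1 (0.0148) and Smarcc2, a core BAF subunit (0.0149). Closest to Pou3f3 were the ciliary factor Foxj1 (0.0508) and the hedgehog receptor Ptch1 (0.0597), and to Pou4f1 Gm8116 (0.0673) and the ETS factor Elf1 (0.0947). For the Zic genes they were Ptpro and E130317F20Rik for Zic1 (0.043 and 0.0532), Ubfd1 and Atpaf2 for Zic2 (0.0227 and 0.0233), Map2k2 and Usp5 for Zic4 (0.0124 and 0.0189) and Wt1os and Snhg8 for Zic5 (0.102 and 0.118). These are the closest of 10453 or 10454 genes over 6 libraries, and they were selected for that closeness.

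Genes around the members were examined because several lie beside noncoding transcripts. Within 100 kb of a member, 20 other genes had at least 10 counts or overlapped one, and 14 of these were tested. None of the 14 passed the adjusted threshold, and 8 had a positive and 6 a negative log2 fold change. At an unadjusted p under 0.05 there was 1 of 14, lower with Baf45d siRNA, where 1.64% of all genes tested were. The groups did not overlap for 2 of 14, both lower with Baf45d siRNA, against 4.3% of all genes in that direction.

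These 2 genes were the noncoding transcripts 2610035F20Rik and Pantr2. The start of 2610035F20Rik (chromosome 14, 122470284 to 122475199, minus strand) lies 236 bases from that of Zic2, on the other strand. NC replicates 1 to 3 had 23, 28 and 30 counts, against 16, 13 and 16 for Baf45d, so all Baf45d libraries lay below all NC libraries. Its levels were 1.43 ± 0.219 and 0.85 ± 0.0701 CPM (SD, n = 3), a log2 fold change of -0.74 (SE 0.30, unadjusted p = 0.0316, edgeR adjusted p = 0.996). The unadjusted p of 2610035F20Rik was under 0.05 in 7 of the 17 alternative settings. It was 0.114 with DESeq2, 0.0507 with the replicate block in edgeR and at least 0.0519 in edgeR when 1 library was left out. Zic2, on the other side of the start of 2610035F20Rik, stood at 9.34 ± 0.73 and 9.08 ± 0.247 CPM.

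Pantr2 (chromosome 1, 42707061 to 42713454, minus strand), which lies 3884 bases beyond the end of Pou3f3, had 14, 13 and 13 counts with NC siRNA and 10, 7 and 8 with Baf45d siRNA. Its log2 fold change was -0.57 (SE 0.37, unadjusted p = 0.16, edgeR adjusted p = 0.996). Pantr1, whose start lies 926 bases from that of Pou3f3 on the other strand, stood at 3.08 ± 0.643 and 3.48 ± 0.639 CPM with overlapping groups. The sense-overlapping transcript Gm20646 stood at 0.607 ± 0.298 and 0.935 ± 0.413 CPM, again with overlap. At these depths of at most 81 counts per library, differences of this size in the noncoding transcripts were not separable from replicate spread after adjustment.

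**Figure D4:**
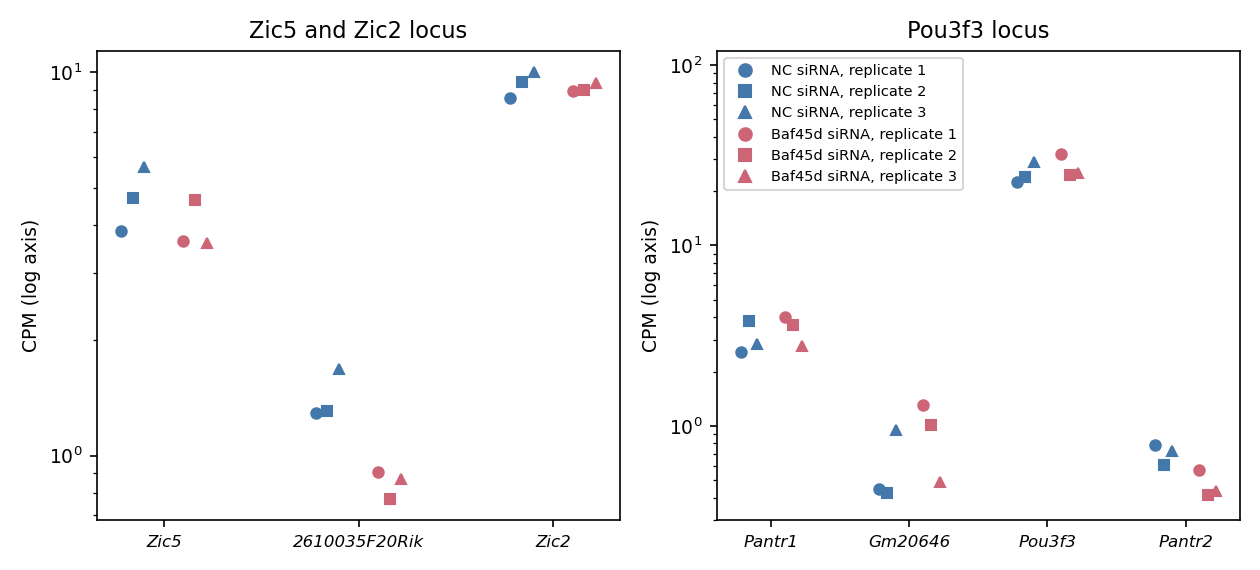
CPM (log axis) of genes at the Zic5 and Zic2 locus (left) and the Pou3f3 locus (right), with 1 symbol for each library, NC siRNA in blue and Baf45d siRNA in red. The groups are apart for 2610035F20Rik (0.772 to 0.908 against 1.29 to 1.68 CPM) and Pantr2, and overlap for Zic5, Zic2, Pantr1, Gm20646 and Pou3f3.

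At the Pou3f1 locus, the antisense transcript Gm2164 shares 330 exon bases with Pou3f1, or 8.57% of Pou3f1 exons, and had 17 to 33 counts per library. Gm2164 stood at 1.21 ± 0.236 and 1.45 ± 0.481 CPM. The protein-coding neighbours Utp11, Fhl3, Sf3a3 and Inpp5b had log2 fold changes of 0.15, -0.19, 0.06 and 0.07, and the pseudogene Gm12917 had 0.25. Near Pou3f2, Fbxl4 had -0.05, and Gm30731, whose start lies 2182 bases from that of Pou3f2 on the other strand, had 8 to 10 counts in every library. Gm37900, 70684 bases away, lay under the filter with 6, 5 and 8 counts with NC siRNA and 0, 0 and 2 with Baf45d siRNA. Near Zic2 and Zic5, Pcca had -0.02 and Clybl -0.29 (-0.10 without NC replicate 1), and near Pou4f1, Rnf219 had 0.13. Of the other low genes, AC154683.1 had 12 counts over the 6 libraries, Gm37477 had 14, Gm29478 had 10 and Mir697 had 23.

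The genes that work with these factors were read from 6 lists, in which 0 members passed the adjusted threshold. Of 7 genes of the wider Zic, Gli and Glis family, 5 were positive and 2 negative in log2 difference, and the median was 0.07. The hedgehog effector Gli3 had a log2 difference of 0.07 (SE 0.08), with overlapping groups. Of 6 other POU genes tested, 5 were positive with a median of 0.06, and Pou2f2 had a log2 difference of 0.20 (SE 0.21). Too few counts to be tested were found for Pou1f1, Pou2f3, Pou4f3 and Pou5f2, whose totals were 1, 10, 35 and 1.

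Factors that act beside class III POU factors in neural progenitors had 12 of 16 positive log2 fold changes, with a median of 0.13. Neurod1, a proneural factor, stood at 9.52, 8.73 and 7.44 CPM in NC replicates and, in Baf45d replicates, at 11.6, 12.0 and 9.04 CPM, and the groups overlapped (log2 difference 0.34, SE 0.17, edgeR adjusted p = 0.996). Pax6, an eye and forebrain factor, stood at 14.2 ± 0.953 and 17.2 ± 2.24 CPM, also with overlap. Sox2, the usual SOX partner, stood at 106.6 ± 3.75 and 121.0 ± 26.0 CPM with overlapping groups.

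Of 8 genes known as targets of class III POU factors in neural cells, 6 were positive, and the median log2 difference was 0.24. At an unadjusted p under 0.05 there was 1, the alpha tubulin gene Tuba1a, where 1.21% of all genes tested were higher at that level. Tuba1a stood at 938.7, 965.9 and 899.5 CPM in NC replicates and, in Baf45d replicates, at 1187, 1415 and 936.1 CPM, so Baf45d replicate 3 lay inside the NC range (log2 difference 0.34, SE 0.13, edgeR adjusted p = 0.996). The Tuba1a difference was 0.19 without Baf45d replicate 2 and 0.48 without Baf45d replicate 3, where the edgeR adjusted p was 0.06, and over all alternatives that p ran from 0.06 to 1. Fabp7, a radial glia gene, stood at 0.831 ± 0.469 and 1.43 ± 0.446 CPM. Of these 8 genes, 4 had their highest value in Baf45d replicate 1 and their lowest in Baf45d replicate 3, against 8.88% of all genes tested. The same held for 3 of 6 other POU genes and 5 of the 16 factors that act beside class III POU factors. It held for 0 of 7 genes of the Zic, Gli and Glis family, 3 of 19 sensory neuron genes and 2 of 17 dorsal neural genes. Among markers it held for 2 of 11 of neural progenitors, 0 of 14 of mesenchyme, 0 of 7 of pluripotency and 1 of 4 of endoderm. Of the 8 members tested, only Pou3f1 had this order, which was taken from it, and some genes are in more than 1 list.

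Sensory neuron genes, the setting of Pou4f1, were split, with 10 of 19 positive and a median of 0.04. Neurod4, a proneural factor, stood at 1.85, 2.11 and 2.97 CPM in NC replicates and, in Baf45d replicates, at 3.18, 3.92 and 3.05 CPM, without overlap (log2 difference 0.55, SE 0.25, edgeR adjusted p = 0.996). Groups were apart for 4 of the 19, with 2 higher (background 3.74%) and 2 lower (background 4.3%).

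Genes of the dorsal neural tube and neural crest, the setting of the Zic genes, had 6 of 17 positive log2 fold changes and a median of -0.06. Pax3, a dorsal neural tube factor, stood at 9.85 ± 2.23 and 7.37 ± 2.38 CPM with overlapping groups. Wnt1, made in the dorsal midline, stood at 21.5 ± 3.08 and 24.5 ± 2.41 CPM, also with overlap. At an unadjusted p under 0.05 there was 1 of 17.

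In the authors' deposited table, made with DESeq2, the log2 fold changes of the 8 genes ran from -0.26 for Zic5 to 0.21 for Pou4f1. The authors' deposited table gives an unadjusted p of 0.297 for Pou3f2 and 0.326 for Zic5. For Pou3f4 the authors' deposited table gives 0.73 (p = 0.757), from 5 counts in all. None of the 9 genes appears in the authors' deposited tables of KEGG terms, Reactome terms or protein pairs.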

How the data were processed

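RNA of 6 P19 samples was sequenced, 3 per siRNA group. The authors deposited 1 table of raw counts and FPKM, per the file headers. The deposited FPKM followed counts over gene length, with library depths in proportion to DESeq2 size factors. The authors' group means there are a signal of normalized counts. The table also holds the authors' log2 ratio of the groups and a deposited p-value for each gene. The submitters' processing notes name DESeq2 1.16.1 and mm9, but 98.3% of 54409 genes had the same start and end in GENCODE M21, as did all 9 members, so positions are GRCm38. Aligner, counter and strand setting were not given in the sources used here. The deposited protein pair table holds a score per pair and the term tables a p-value per term; both were only searched for the members.

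Counts were tested with edgeR 4.0.16 (R 4.3.3): default filterByExpr, 16078 genes, TMM scaling, robust quasi-likelihood F test on group alone, two-sided, Benjamini-Hochberg adjustment over all genes, threshold 0.05. Log2 CPM used a prior count of 2. DESeq2 1.42.0, limma 3.58.1, other scalings and filters, FPKM with pseudocounts of 1 and 0.1, a replicate block and omitted libraries were the alternatives. On simulated counts of this design, 50.8% of 65 genes changed 1.5-fold and 71.4% of 70 changed 2-fold were recovered over 15832 genes, and 8.28% of calls were false.

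Replicate numbers come from the labels, which state no shared batch. Deviations from group means correlated with r = 0.17, 0.13 and 0.35 for same-numbered libraries over 16078 genes. Other pairs gave -0.24 to 0.12, the highest for NC replicate 1 with Baf45d replicate 2, so pairing by number was not settled. The main fit and the exact tests did not use the numbers as pairs, and the replicate block fit did. Chi-square per degree of freedom between libraries of a group was 3.13 to 20.7, so none is a copy. The members and lists were chosen with earlier results of these data known. Named genes are the 9 members, Dpf2, genes within 100 kb with at least 10 counts or overlapping, the 2 genes of 10 CPM or more closest in centred log2 CPM to each tested member, and the 2 of smallest p in each list, of which some are not reported here. Other genes were named after their values were seen. Figures were drawn with matplotlib 3.10.9.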

Additional observations from a re-analysis of the deposited data

How the results depend on the processing

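The count of members past the threshold was 0 in the fit on all libraries and in all 17 alternatives, which included DESeq2, limma-voom, other scalings and filters, FPKM and the replicate block. Over all genes the count was 0 with all libraries, 10 without a filter on low counts, 1 with the replicate block, 20 without both libraries numbered 3, and 0 to 44 when single libraries were left out, the 44 without Baf45d replicate 3. The block changed no call of a member. Signs of uncalled genes turned only when libraries were left out. Leaving out 1 library gave log2 fold changes of 0.00 to 0.26 for Zic1, -0.10 to 0.01 for Zic2, -0.13 to 0.04 for Zic4, -0.25 to 0.07 for Pou3f1 and -0.02 to 0.23 for Pou3f3. Among other named genes it gave -0.09 to 0.07 for Pcca, -0.21 to 0.63 for Gm12917, -0.11 to 0.00 for Fbxl4, -0.01 to 0.21 for Rnf219, -0.02 to 0.43 for Pou2f2 and, with no turn, -0.41 to -0.10 for Clybl. Without both libraries numbered 3 the values were 0.03 for Pou3f1, -0.46 for Gm12917 and -0.08 for Rnf219. The cause of these turns was not tested. Among the members, unadjusted p fell under 0.05 for Zic1 without both libraries numbered 3 (0.0425, adjusted 0.449) and for Pou3f1 without Baf45d replicate 1 (0.0438, adjusted 0.826). Over the alternatives, adjusted p ran from 0.449 to 1 for Zic1 and from 0.789 to 1 for Pou3f1. Without Baf45d replicate 3, 13.3% of all genes had an unadjusted p under 0.05, among them Tuba1a (0.000209), Pou2f2 (0.00517), Pax3 (0.0118), Pax6 (0.0135), Neurod1 (0.0138), Fhl3 (0.0416) and Neurod4 (0.0439). Their adjusted p in that fit ran from 0.06 to 0.361. Gm20646 without both libraries numbered 3 (0.0133, adjusted 0.344), Fabp7 without NC replicate 3 (0.0162, adjusted 1) and Utp11 without Baf45d replicate 1 (0.0272, adjusted 0.826) were also under 0.05. Depth limits Pou3f4, with 5 counts in all, and the noncoding neighbours.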
